A study of Mus musculus with 12 samples.

Results

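The cytochrome P450 genes of the mouse kidney were taken as all probes of an expression array whose annotated symbol is Cyp followed by a digit, leaving out the vitamin D hydroxylase genes Cyp24a1 and Cyp27b1. There were 123 such probes with 80 symbols among 45281 probes with 30854 symbols. P450 enzymes are haem proteins that insert oxygen into drugs, steroids, sterols and fatty acids, with electrons passed to them by a reductase. Members of the Cyp2 family oxidise many foreign compounds and some of them turn arachidonic acid into epoxides, while Cyp4 enzymes hydroxylate fatty acids near the end of the chain and make eicosanoids that act on renal vessels and salt transport. In the mouse kidney many of these genes are transcribed in the proximal tubule, and several differ between males and females.

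The kidneys came from 12 male C57BL/6 mice aged 10 weeks. The 6 control mice received 0.1% saline 2 times a day, and the 6 treated mice received colistin, a polymyxin antibiotic with known kidney toxicity, at 16 mg/kg per day split over 2 doses. The series looks at kidney transcripts after 72 h of exposure. Total RNA of whole kidney was hybridised to Illumina MouseWG-6 v2 BeadChips, 3 mice of each group on each of 2 BeadChips. Saline and colistin mice took alternate positions on both BeadChips, so the 2 treatments cannot be told apart from the 2 sets of array positions. Mice are numbered within their group as the labels number them; nothing in the labels says more of how they were housed or dosed together.

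Each array detected between 14661 and 16154 probes, 15406 ± 501 (SD, n = 6) in saline and 15446 ± 467 (SD, n = 6) in colistin mice (exact two-sided permutation p = 0.877). Raw signal was on average higher in colistin mice. Its 75th percentile was 121.6 in saline and 131.1 in colistin mice (exact two-sided permutation p = 0.0433, adjusted 0.104 over 4 array measures). Its median was 93.1 and 95.6 (exact two-sided permutation p = 0.0519, adjusted 0.104). A probe was kept when its detection p, a comparison with the control beads that match no transcript, was under 0.01 on at least 4 of the 12 arrays. Of 16179 kept probes, 74 were called changed at an adjusted p under 0.05 in limma, a share of 0.457%. A total of 52 were higher in colistin mice (0.321%) and 22 lower (0.136%). Saline mouse 2 stood apart from the other mice over the whole array: it was the highest or lowest of the 12 for 53.5% of kept probes. Its score on the first principal component (49.2% of the variance) was 64.6. Saline mouse 5 was at 28.7, saline mouse 1 at -27.1 and the others between -14.7 and 13.6. Saline mouse 1 was at an end for 28.0% of kept probes, and saline mouse 5 and colistin mouse 4 for 23.1% each. Saline mouse 5 had the dimmest array, with a 95th percentile of raw signal of 475 where every other array reached at least 752. Values without saline mice 2 and 5 are given beside the main results they move most. Both lie on the same side of the first principal component, so leaving them out moves the saline mean to the other side.

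Proximal tubule markers, the transporters and metabolic enzymes that define the tissue in which most renal P450 genes are read, were present: 17 of 18 listed genes were detected and 0 were called changed. Of 6 adrenal markers only Akr1b7 was detected, and Star, Hsd3b1, Mc2r, Nr5a1 and Scarb1 were not. Of 8 liver markers 4 were detected, Apoa1, Apoa2, Ttr and Serpina1a, while Alb, the gene of serum albumin, Fgb, Ahsg and Cps1 were not. Ttr was bright on all 12 arrays, with mean log2 signals of 11.39 in saline and 11.69 in colistin mice.

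A total of 38 P450 probes, with 29 symbols, were detected and 85 were not. That is 30.9% of the P450 probes, with 35.7% detected over the whole array. Of the detected probes 36 were above background on all 12 arrays, and those of Cyp2f2 and one probe of Cyp3a13 on 8. By family, 21 of 68 Cyp2 probes, 9 of 17 Cyp4 probes and 8 of 38 probes of other families were detected. Between 36 and 42 P450 probes were above background on a single array, with means of 38.5 ± 1.87 (SD, n = 6) in saline and 37.5 ± 0.837 (SD, n = 6) in colistin mice (exact two-sided permutation p = 0.413, adjusted 0.551 over 4 array measures).

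The undetected probes took in some classical targets of the dioxin receptor, though not Cyp1b1, and genes of steroid synthesis. Cyp1a1 and Cyp1a2, which oxidise polycyclic aromatic compounds, were above background on 0 arrays, with raw signals between 84.8 and 91.1 for Cyp1a1. The same held for Cyp11a1, which cuts the side chain of cholesterol, for Cyp17a1 and for the aromatase gene Cyp19a1. No array detected the probe of Cyp2j5, an epoxygenase gene known from mouse kidney (raw signal 81.5 to 93.9). Of the 85 undetected probes 81 were above background on 0 arrays and 4 on 1 to 3 arrays. These 4 were a probe of the aldosterone synthase gene Cyp11b2 (3 saline arrays), one of Cyp3a13 (2 saline arrays), one of Cyp2j9 (1 array of each group) and one of Cyp2d40 (1 saline array). No P450 probe was above background on at least 4 arrays of one group and none of the other. The array holds no probe with the symbol Cyp4a10. In 7 genes (Cyp2c44, Cyp2d22, Cyp2j9, Cyp2j11, Cyp3a13, Cyp4f16 and Cyp20a1) one probe was detected and another was not, so a probe without signal does not show that its gene is silent.

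After 72 h of colistin 0 of the 38 detected P450 probes were called changed, where 0.457% of all kept probes were. At an unadjusted p under 0.05 limma marked 1 of the 38, Cyp1b1, and 10.9% of all kept probes. Fitted differences ran from -0.85 to 0.70 on the log2 scale, 18 above and 20 below 0, while 53.1% of all kept probes lay above 0. The median difference was -0.012 over the 38 probes, -0.086 over the Cyp2 probes, 0.20 over the Cyp4 probes, 0.075 over the other families and 0.013 over all kept probes. For 0 of the 38 were the 6 colistin values clear of the 6 saline values, which was so for 1% of all kept probes. The directions rest in part on the mice that stood apart: without saline mice 2 and 5, 7 of the 38 differences lay above 0 and the Cyp4 median became -0.082, with 0 probes called.

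**Figure D1:**
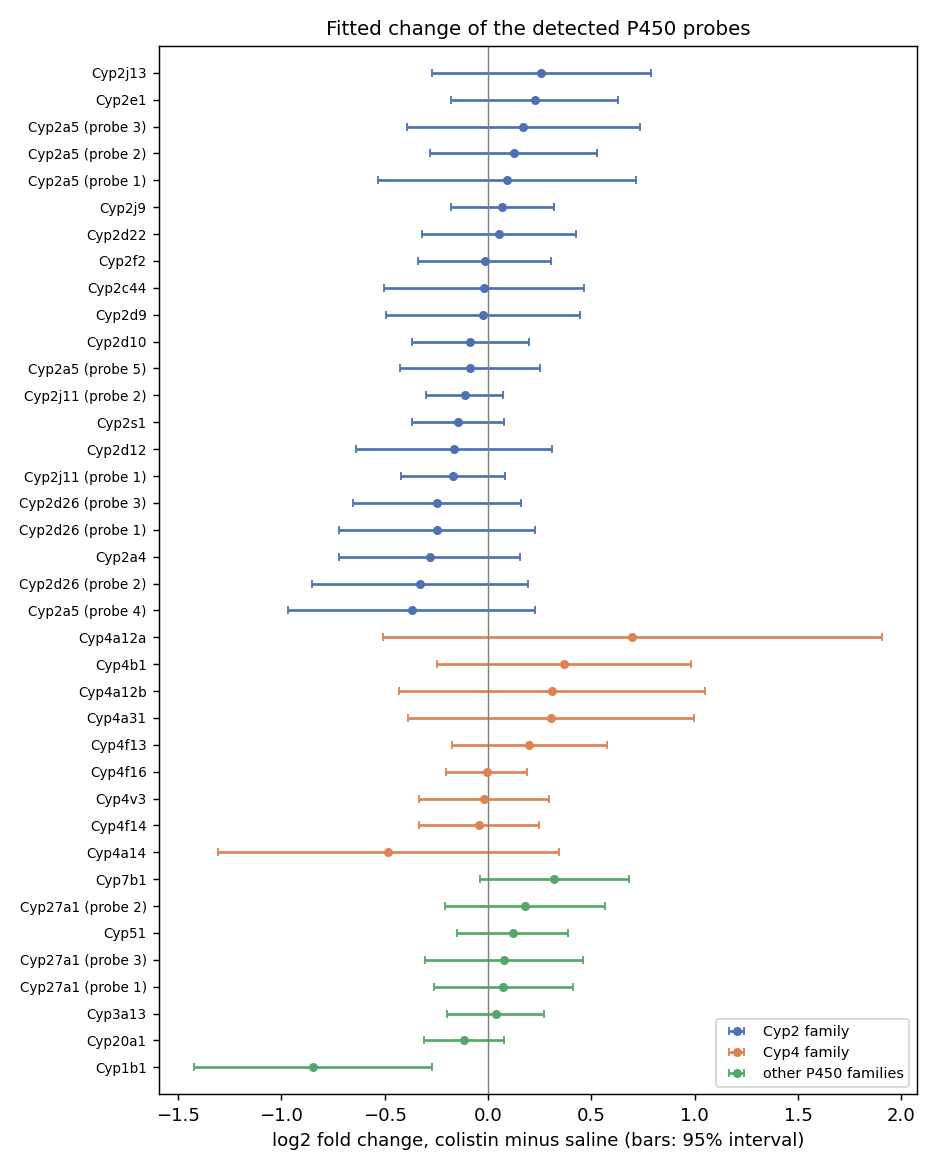
Fitted log2 difference, colistin minus saline, of the 38 detected P450 probes (points) with its 95% interval (bars), from limma on 6 saline and 6 colistin mice, grouped by family and sorted by size. The interval of Cyp1b1, from -1.42 to -0.27, is the one that does not include 0; that of Cyp4a12a, from -0.51 to 1.91, is the widest.

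Among the Cyp2 genes, those of foreign compound metabolism showed differences that stayed within the spread between mice. Cyp2e1, which oxidises ethanol and other small molecules, had log2 signals between 12.26 and 13.72 in saline mice (median 13.19) and between 13.08 and 13.48 in colistin mice (median 13.41). The colistin range lay inside the saline range, whose lowest value was that of saline mouse 2. The difference was 0.23 ± 0.19 (SE), with a 95% interval from -0.18 to 0.63 (limma adjusted p = 0.642). Without saline mice 2 and 5 it was -0.038. Cyp2d22, of the family that handles many amine drugs in humans, differed by 0.054 ± 0.17 (SE; 95% interval -0.32 to 0.43), and by -0.12 without saline mice 2 and 5.

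The Cyp2a genes encode steroid and coumarin hydroxylases that are alike enough in sequence that signal cannot be assigned with certainty to one of them. The single Cyp2a4 probe ran from 8.55 to 9.11 in saline mice (median 8.88) and from 7.54 to 8.93 in colistin mice (median 8.79). Colistin mouse 4 was the lowest of all 12. The fitted difference was -0.28 ± 0.20 (SE; 95% interval -0.72 to 0.15; limma adjusted p = 0.60). It was -0.078 without colistin mouse 4 and -0.36 without colistin mouse 3. The 5 detected probes of Cyp2a5 gave differences of 0.17, 0.12, 0.093, -0.088 and -0.37, so they did not agree in direction. At the most negative of these, saline mouse 6 reached 8.35 and no other mouse more than 7.14. Without saline mouse 6 the difference was -0.10, and without saline mouse 5 it was -0.56.

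The Cyp2d genes are another cluster of close relatives, and their probes may also share signal. All 3 probes of Cyp2d26 were fitted below 0 by similar amounts, -0.33 ± 0.25, -0.25 ± 0.22 and -0.25 ± 0.19 (SE), none called. At the probe with the smallest p of the 3, saline values ran from 7.35 to 8.79 (median 7.66) and colistin values from 6.78 to 8.26 (median 7.51), with saline mouse 3 highest and colistin mouse 3 lowest. Its 95% interval was -0.85 to 0.19. The difference was -0.13 without saline mouse 3, -0.19 without colistin mouse 3 and -0.48 without colistin mouse 4. Cyp2d9, a steroid hydroxylase gene that is male-specific in mouse liver, differed by -0.023 ± 0.22 (SE), Cyp2d10 by -0.086 ± 0.13 and Cyp2d12 by -0.17 ± 0.22. Without saline mice 2 and 5, Cyp2d12 had the smallest adjusted p of the P450 probes, 0.561 in limma.

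The epoxygenase genes had fitted differences on both sides of 0, and none passed. Both detected probes of Cyp2j11 were fitted slightly below 0. The brighter ran from 12.25 to 12.58 in saline mice (median 12.32) and from 12.23 to 12.35 in colistin mice (median 12.25), a difference of -0.11 ± 0.087 (SE; 95% interval -0.30 to 0.071; limma adjusted p = 0.614). The other differed by -0.17 ± 0.12 (SE; 95% interval -0.42 to 0.084; limma adjusted p = 0.592), the smallest adjusted p of the Cyp2 family. Both intervals lie within a 1.5-fold change in either direction.

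Cyp2j13 is a member of the same subfamily. Its log2 signals were 8.54 to 10.39 in saline mice (median 9.98) and 9.78 to 10.13 in colistin mice (median 9.91). Saline mice 2 and 3 were the lowest of the 12 and the other saline mice lay among or just above the colistin mice. The difference was 0.26 ± 0.25 (SE; 95% interval -0.27 to 0.79; limma adjusted p = 0.684). It was 0.032 without saline mouse 2 and 0.40 without saline mouse 1. Cyp2c44 (now Cyp2c23), an arachidonic acid epoxygenase gene of the kidney, differed by -0.021 ± 0.23 (SE), and Cyp2j9 by 0.068 ± 0.12 (SE). Cyp2s1, a P450 gene of epithelia, differed by -0.15 ± 0.10 (SE; 95% interval -0.37 to 0.075), and Cyp2f2, known for the oxidation of naphthalene in mouse airway, by -0.017 ± 0.15 (SE).

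The Cyp4 genes held the largest positive fitted difference of all P450 probes and also the widest spread, and none passed the test. Cyp4a12a encodes the fatty acid hydroxylase that makes a vasoconstrictor eicosanoid in the male mouse kidney and is induced by androgen. Its saline values were 5.98 to 10.11 (median 9.07) and its colistin values 8.21 to 10.20 (median 9.54). Saline mouse 2 was at 5.98 and the next lowest mouse at 8.05. The fitted difference was 0.70 ± 0.57 (SE), or 1.62-fold, with a 95% interval from -0.51 to 1.91 (limma adjusted p = 0.630). It was 0.99 without saline mouse 1 and 0.16 without saline mouse 2, and turned to -0.12 without saline mice 2 and 5. The near-identical gene Cyp4a12b differed by 0.31 ± 0.35 (SE; 95% interval -0.43 to 1.05), and the related Cyp4a31 by 0.31 ± 0.32 (SE; 95% interval -0.39 to 0.997). These also turned, to -0.12 and -0.082.

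Cyp4b1, which oxidises fatty acids and activates some furan toxins, was low in the same mouse. Its saline values were 10.88 to 13.24 (median 12.44) and its colistin values 12.46 to 12.88 (median 12.75). All 6 colistin mice were above the saline mean of 12.33, yet inside the saline range. The difference was 0.37 ± 0.29 (SE; 95% interval -0.25 to 0.98; limma adjusted p = 0.621), and -0.054 without saline mice 2 and 5. Cyp4f13 differed by 0.20 ± 0.18 (SE) and by -0.047 without these mice.

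Cyp4a14, a fatty acid hydroxylase gene and a classical target of the receptor PPAR alpha, was fitted on the other side of 0. Its saline values were 9.23 to 11.56 (median 9.93) and its colistin values 8.83 to 10.65 (median 9.87). Saline mice 2 and 3, at 11.56 and 11.40, were the highest of the 12, and the group medians were close. The difference was -0.48 ± 0.39 (SE; 95% interval -1.31 to 0.34; limma adjusted p = 0.627). It was -0.23 without saline mouse 2, -0.27 without saline mouse 3 and -0.28 without colistin mouse 6, and reached -0.70 without saline mouse 4. The remaining Cyp4 probes differed by -0.0066 (Cyp4f16), -0.020 (Cyp4v3) and -0.043 (Cyp4f14). Of the 9 detected Cyp4 genes, Cyp4a12a, Cyp4a12b, Cyp4a14, Cyp4a31 and Cyp4b1 are annotated to chromosome 4.

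The P450 genes of sterol and bile acid synthesis had fitted differences above 0, none called, and those of Cyp27a1 changed sign without saline mice 2 and 5. Cyp7b1, the hydroxylase that clears oxysterols, was 11.64 to 12.63 in saline mice (median 12.35) and 12.20 to 13.00 in colistin mice (median 12.48). Saline mice 2 and 5 were below every colistin mouse and the other 4 saline mice overlapped them. The difference was 0.32 ± 0.17 (SE; 95% interval -0.040 to 0.68), or 1.25-fold (limma adjusted p = 0.502), and its p was the next smallest after that of Cyp1b1. It was 0.40 without saline mouse 1, 0.20 without saline mouse 5 and 0.11 without saline mice 2 and 5. Cyp51, the lanosterol demethylase of cholesterol synthesis, was 10.34 to 10.80 in saline mice (median 10.62) and 10.32 to 11.05 in colistin mice (median 10.70), a difference of 0.12 ± 0.13 (SE; 95% interval -0.15 to 0.39). The groups overlapped, with colistin mice 1 and 3 above every saline mouse and colistin mouse 4 below every saline mouse. Cyp27a1, the mitochondrial sterol hydroxylase, was read by 3 probes that differed by 0.18 ± 0.18, 0.075 ± 0.18 and 0.074 ± 0.16 (SE). Without saline mice 2 and 5 these turned to -0.066, -0.19 and -0.074. The orphan P450 gene Cyp20a1 differed by -0.12 ± 0.091 (SE) and Cyp3a13, of the drug-metabolising Cyp3a family, by 0.037 ± 0.11 (SE).

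Cyp1b1 showed the largest difference of any detected P450 probe and the smallest p, and it did not pass. It encodes an oxidase of steroids and aromatic compounds that is controlled by the dioxin receptor and is known from stromal and vascular cells more than from tubules. Its log2 signals in saline mice 1 to 6 were 5.78, 7.83, 6.30, 6.93, 7.05 and 6.93 (median 6.93), and in colistin mice 1 to 6 they were 6.08, 6.43, 5.88, 5.76, 5.44 and 6.16 (median 5.98). All 6 colistin mice lay below the saline mean, but saline mice 1 and 3 lay inside the colistin range. The difference was -0.85 ± 0.27 (SE), 1.80-fold lower, with a 95% interval from -1.42 to -0.27 (limma adjusted p = 0.262). Without saline mouse 1 the difference was -1.05 and was called (limma adjusted p = 0.0281), where 329 of all kept probes were called; without saline mouse 2 it was -0.64 (limma adjusted p = 0.319), and without saline mice 2 and 5 -0.54 (limma adjusted p = 0.592). It was -0.86 on the first BeadChip alone and -0.84 on the second alone, where it was called (limma adjusted p = 0.0233) with 298 of all kept probes.

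**Figure D2:**
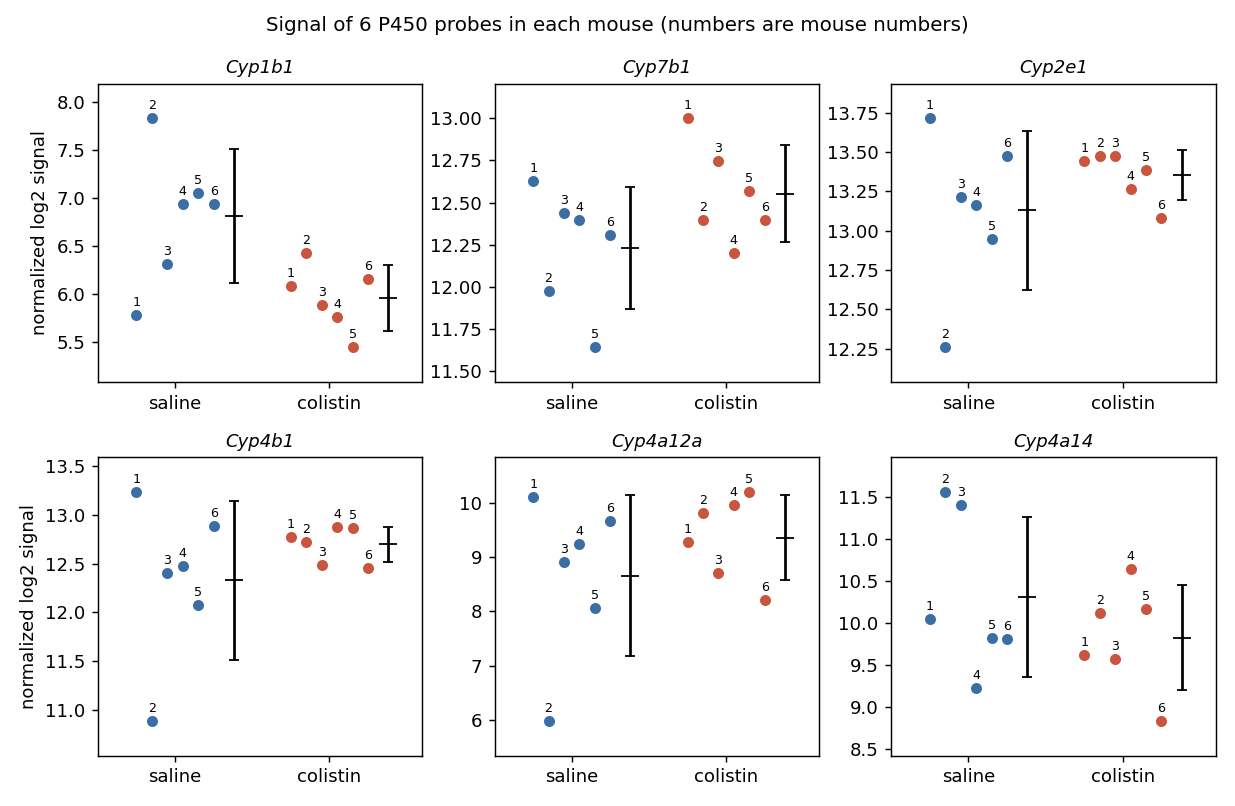
Normalized log2 signal of 6 P450 probes in each of the 12 mice (points, numbered by mouse within its group), with the group mean and SD beside the points; each panel has its own axis. Saline mouse 2 is the highest of all mice for Cyp1b1 (7.83) and Cyp4a14 (11.56) and the lowest for Cyp2e1 (12.26), Cyp4b1 (10.88) and Cyp4a12a (5.98).

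Most markers of stromal and vascular cells were also fitted below 0. Of 12 endothelial markers 11 were detected, all 11 fitted below 0 in colistin mice with a median of -0.46, and 0 were called. Their summed signal on a linear scale was 2623 to 7611 in saline mice and 3274 to 4643 in colistin mice. It was lowest in saline mouse 1 and highest in saline mouse 2, as for Cyp1b1 within the saline group. Within the colistin group the order differed. Cyp1b1 was highest in colistin mouse 2, whose endothelial sum was 3343, while the sum was highest in colistin mouse 6 (4643). Of 10 fibroblast and matrix markers 7 were detected, with a median of -0.41 and 0 called. Their sum was 1054 to 3059 in saline mice and 629 to 1025 in colistin mice, without overlap. This sum mostly reads Dcn and Pdgfra, with saline mean log2 signals of 10.16 and 8.33. The other detected members were at 5.57 or below. Of these, Col1a1 (0.011) and Fn1 (-0.039) differed little. Of 11 macrophage marker genes 9 were detected, with a median of -0.42 and 0 called, and a sum of 426 to 878 against 316 to 628. Within the saline group the fibroblast and macrophage sums were lowest in mouse 3, not mouse 1. Of 6 smooth muscle markers 3 were detected and 2 of these, Myl9 (-0.91 ± 0.12, SE; limma adjusted p = 0.00144) and Des (-0.56 ± 0.11, SE; limma adjusted p = 0.0263), were lower; their sum was 535 to 1895 in saline mice and 398 to 720 in colistin mice. Saline mouse 1 had the highest smooth muscle sum, and its adipocyte sum, from 2 detected markers of 7, was 3297 where no other mouse exceeded 586. In bulk tissue fewer cells of a type and less RNA per cell cannot be told apart, and the part of these cells in the Cyp1b1 difference was not tested.

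The upstream sequences of Cyp1b1, the P450 gene with the largest difference, and of Cyp4b1, for which saline mouse 2 lay far below the other mice, are shown. Cyp1b1 is a known target of the dioxin receptor, and Cyp4b1 is known to respond to androgen in the mouse kidney. Each is the stretch of 250 bases before the annotated start, 5′ to 3′ on the gene's strand, from RefSeq on build GRCm38.p6. That of Cyp1b1 is chr17:79715062-79715311 and that of Cyp4b1 chr4:115647722-115647971, both on the minus strand. Capitals mark GCGTG, the core of the dioxin receptor element, in Cyp1b1 and AGAACA, the core bound by one unit of a steroid receptor, in Cyp4b1; both lie on the opposite strand, so they read as their reverse complements, 76 and 248 bases before the start.
Cyp1b1: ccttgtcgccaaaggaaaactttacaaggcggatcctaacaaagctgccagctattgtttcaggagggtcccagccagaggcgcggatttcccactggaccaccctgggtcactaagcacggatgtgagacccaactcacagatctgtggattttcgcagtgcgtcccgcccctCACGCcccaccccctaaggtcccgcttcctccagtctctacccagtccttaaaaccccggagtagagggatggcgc
Cyp4b1: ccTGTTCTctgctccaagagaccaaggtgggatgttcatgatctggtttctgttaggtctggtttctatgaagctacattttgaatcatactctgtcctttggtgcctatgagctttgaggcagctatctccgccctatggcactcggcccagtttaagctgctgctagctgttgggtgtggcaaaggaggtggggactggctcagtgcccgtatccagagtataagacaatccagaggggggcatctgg
Of the 29 detected P450 symbols 21 had an upstream sequence in the RefSeq table used. On either strand of these 250 bases GCGTG stood in 8 of the 21, in 6 of 38 undetected P450 genes and in 28.2% of 27025 promoters. AGAACA stood in 3 of the 21, in 7 of the 38 and in 16.2% of all promoters. AGGTCA, bound by one unit of many nuclear receptors, stood in 1 of the 21, in 13 of the 38 and in 13.8% of all, and GTTAAT, bound by one unit of the tubular factor HNF1, in 3 of the 21, in 2 of the 38 and in 6.52% of all. A match in letters is a description of the window and no evidence of binding.

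The spread between mice was wider among saline than among colistin mice for most P450 probes. The SD over the 6 saline mice exceeded that over the 6 colistin mice for 34 of 38 probes (89.5%), where it did so for 78.8% of all kept probes. The median SD of the 38 was 0.454 in saline and 0.244 in colistin mice on the log2 scale, with 0.251 and 0.161 over all kept probes. For the Cyp4 probes it was 0.814 and 0.244, and all 9 were more spread in saline mice. Without saline mouse 2 the saline SD was the larger for 32 of the 38 probes (68.3% of all kept probes), and without saline mice 2 and 5 for 27 of them (58.4% of all kept probes). Cyp2a4 was among the 4 exceptions, with an SD of 0.238 in saline and 0.523 in colistin mice.

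**Figure D3:**
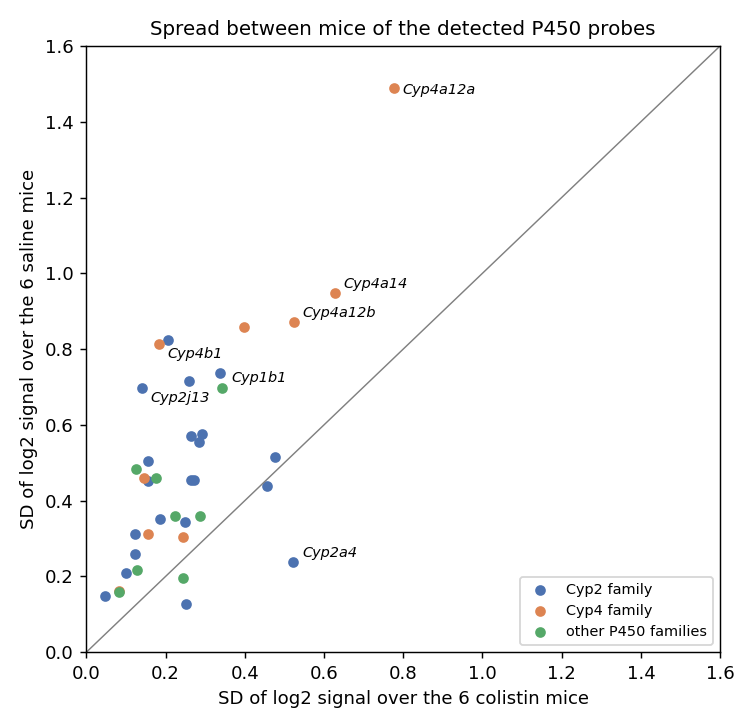
SD of the log2 signal over the 6 saline mice (vertical axis) against that over the 6 colistin mice (horizontal axis) for the 38 detected P450 probes, coloured by family; the line marks equal spread. Of the 38 points 34 lie above the line, all 9 Cyp4 probes among them, and Cyp4a12a is the most spread in both groups.

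Saline mouse 2 was at one end of the 12 mice for 25 of the 38 P450 probes (65.8%), and for 53.5% of all kept probes. It was the lowest for 19 (50%), where it was the lowest for 28.3% of all kept probes. It was the highest for 6 (15.8%), where it was the highest for 25.2% of all kept probes. The 19 included 3 probes each of Cyp2a5 and Cyp27a1, and Cyp2e1, Cyp2j13, Cyp4a12a, Cyp4a12b, Cyp4a31, Cyp4b1 and Cyp4f13. The 6 were Cyp1b1, Cyp4a14, Cyp4v3, Cyp2s1, Cyp3a13 and 1 probe of Cyp2j11. Its median deviation from the mean of the 12 mice was -0.40 over the 38 probes and -0.90 over the Cyp4 probes. In the same mouse the summed proximal tubule signal was the lowest of the 12, 69203 against 79281 to 93345 in the other saline mice and 79346 to 89306 in colistin mice. Its summed endothelial (7611), fibroblast (3059), macrophage (878) and podocyte (3844) signals were the highest of the 12. The part of tissue makeup in the P450 values of this mouse was not tested.

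**Figure D4:**
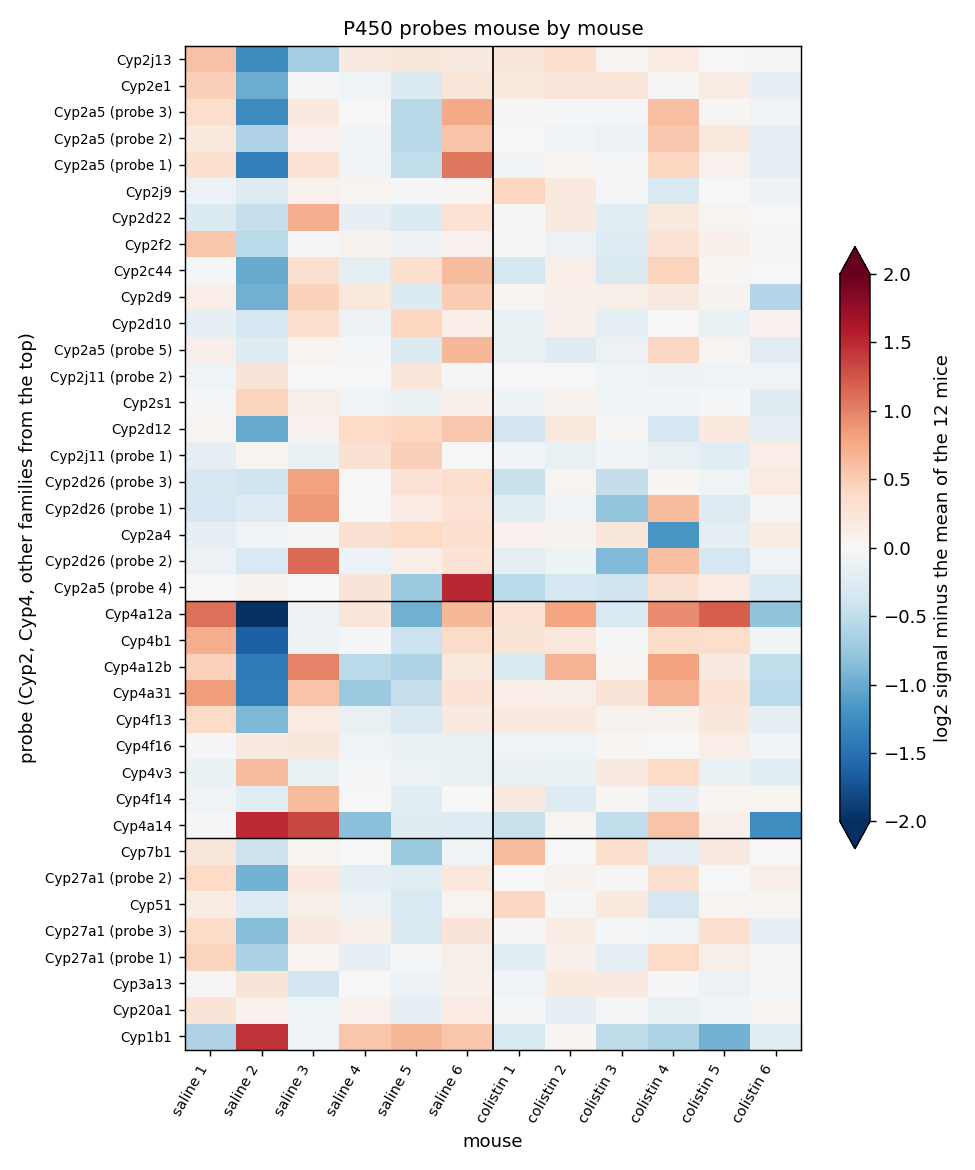
Log2 signal of each detected P450 probe minus its mean over the 12 mice, by mouse (columns) and probe (rows, Cyp2, Cyp4 and other families from the top), blue below and red above the mean; the scale ends at 2 in either direction, beyond which Cyp4a12a in saline mouse 2 lies at -3.03. The column of saline mouse 2 is mostly blue, with Cyp4a14 and Cyp1b1 red.

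The genes that work with P450 enzymes gave no called change either. Of the redox partners and cofactor genes 9 were detected and 0 called, with a median of 0.082. The reductase gene Por, which feeds electrons to the microsomal P450 enzymes, differed by 0.19 ± 0.11 (SE), and the haem oxygenase gene Hmox1, which breaks haem down, by 1.17 ± 0.46 (SE; limma adjusted p = 0.377). Pgrmc1, the gene of a haem-binding P450 partner, differed by -0.28 ± 0.14 (SE). Of the receptors and factors that regulate P450 genes 12 were detected and 0 called, 10 of them fitted above 0, with a median of 0.14. Nr1i2, the gene of the xenobiotic receptor PXR, differed by -0.36 ± 0.12 (SE; limma adjusted p = 0.292). Its probe was near background, above it on only 4 of the 12 arrays, with means of 4.87 in saline and 4.51 in colistin mice. The highest value, 5.25, was that of saline mouse 2. The dioxin receptor gene Ahr, its repressor Ahrr and the receptor genes Nr1i3, Nr3c1 and Nr0b2 were not detected.

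The partner genes of eicosanoid and lipid pathways also had 0 members called. Of the epoxide hydrolase and eicosanoid genes 5 were detected and 0 called (median -0.17), with the prostaglandin D synthase gene Ptgds at -0.29 ± 0.12 (SE) and the cyclooxygenase gene Ptgs1 at -0.19 ± 0.11 (SE). Of the sterol synthesis genes around Cyp51 12 were detected and 0 called (median 0.022), with the sterol sensor gene Insig1 at -0.22 ± 0.16 (SE). Among PPAR alpha targets 9 were detected and 0 called (median 0.10). Pdk4, a kinase gene that restrains glucose oxidation, differed by 0.76 ± 0.35 (SE), the opposite sign to Cyp4a14. Among androgen-responsive or male-biased kidney genes 7 were detected and 0 called (median -0.043). The glucuronidase gene Gusb, with 4 detected probes, differed by 0.16 ± 0.14 (SE) at its brightest probe. At its probe with the smallest p the sign was the opposite, -0.20 (limma adjusted p = 0.562). Slc22a30, a transporter gene, differed by -0.24 ± 0.21 (SE). Over these 7 genes saline mouse 2 was the lowest of the 12 mice for Gusb and Slc22a30, the second lowest for Acsm3 and Hsd11b1, the third lowest for Kap and Odc1 and the tenth lowest for Slc7a13.

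The treatment effect was compared between the BeadChips with an interaction term. For 0 of the 38 P450 probes was the interaction called, with 0 also at an unadjusted p under 0.05, and for 0 of all 16179 probes (0%; 2.55% at an unadjusted p under 0.05) in limma. The fitted difference had the same sign on both BeadChips for 17 of 38 P450 probes, against 63.4% of all kept probes. Cyp4a14 gave the smallest interaction p of the 38, with -1.12 on the first and 0.15 on the second BeadChip. For Cyp7b1 the values were 0.040 and 0.60. With 3 mice of each group on a BeadChip, these values have little precision.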

How the data were processed

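Per the file headers, the deposited probe table gives mean bead signals as linear intensities, not background-subtracted, with a detection p-value each. The authors also deposited normalized intensities by probe and by symbol, whose method is not given in the sources used here. Names of tools in the submitters' processing notes are GenomeStudio and Partek.

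The raw intensities went through limma's neqc (version 3.58.1 under R 4.3.3), which corrects background from the detection p-values, adds an offset of 16 (this compresses the differences of dim probes) and quantile-normalizes. Probes with detection p under 0.01 on at least 4 of 12 arrays were tested with lmFit and eBayes on log2 values, by group alone, two-sided, and adjusted by Benjamini-Hochberg across the 16179 of them. The fit was tested on simulated data. Of 123 P450 probes 119 carried a current symbol and 4 a synonym.

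Named were, per family, the 5 genes with the smallest p and the 4 with the highest saline mean, a fixed list of known P450 genes, and 2 genes with the smallest p per partner list; Por and other members were added after their values were seen. Some partner genes that this rule takes are not reported here. Members, lists and alternatives were chosen with earlier results of these data known. Same-numbered mice were not treated as pairs in the fit reported, as the labels name no pairs. Their deviations correlated between -0.26 and 0.12, which cannot show whether they were housed or dosed together.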

Additional observations from a re-analysis of the deposited data

Results flagged for a closer look

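Single mice stood apart from the rest of their group for 2 of the 50 groups of 6 values examined (25 probes in each treatment), where chance flags about 1 in 20. For Cyp2a4, colistin mouse 4 was at 7.54, with the nearest colistin mouse at 8.52 and the other end of the group at 8.93. The gap made up 0.701 of the range, above Dixon's 95% critical value for 6 samples. For Cyp2d9, colistin mouse 6 was at 10.12, with the nearest at 10.76 and the other end at 10.88, a gap of 0.837 of the range. Without colistin mouse 4 the Cyp2a4 difference was -0.078, and without colistin mouse 6 the Cyp2d9 difference was 0.091.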

How the results depend on the processing

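For the P450 probes the count called was 0 in the fit reported and under every alternative except the second BeadChip alone and leaving out saline mouse 1, each with 1 (Cyp1b1, -0.84 and -1.05; limma adjusted p = 0.0233 and 0.0281), so leaving out single mice gave 0 to 1. Over all kept probes the 74 calls became 25 with no background correction, 45 with an offset of 50, 33 with no detection filter, 27 with detection on all 12 arrays, 0 on the first BeadChip alone (2.10% at an unadjusted p under 0.05 in limma), 298 on the second alone and 138 at an adjusted p under 0.10. With the replicate number as a block they were 36, with 0 P450 probes. Leaving out single mice gave 38 to 329 calls: 329 without saline mouse 1, 38 without saline mouse 4, 47 without saline mouse 6, and 45, 40, 46 and 48 without colistin mice 2, 3, 5 and 6. The family medians ranged from -0.17 to -0.00071 for Cyp2, 0.055 to 0.30 for Cyp4 and -0.019 to 0.16 for the other families with 1 mouse left out; without saline mice 2 and 5 they were -0.19, -0.082 and -0.070. Of 620 recomputed differences of 25 named probes, 588 kept their sign and side of the threshold, 30 changed sign and 2 became called. Without saline mice 2 and 5 the sign changed for Cyp27a1 (-0.074, -0.066 and -0.19), Cyp2d22 (-0.12), Cyp2e1 (-0.038), Cyp4a12a (-0.12), Cyp4a12b (-0.12), Cyp4a31 (-0.082), Cyp4b1 (-0.054) and Cyp4f13 (-0.047). On the first BeadChip alone it changed for 2 Cyp2a5 probes (0.036 and 0.11), Cyp2d9 (0.015), Cyp2j11 (0.0070), Cyp3a13 (-0.032) and Cyp51 (-0.075), and on the second alone for Cyp27a1 (-0.073) and Cyp4a14 (0.15). In the authors' gene-level intensities it changed for Cyp2a5 (0.017) and Cyp3a13 (-0.045), and with scaling to the 75th percentile for Cyp3a13 (-0.043). With 1 mouse left out, signs changed for 2 Cyp27a1 probes (-0.046 to 0.17 and -0.088 to 0.16), Cyp2a5 (-0.18 to 0.036), Cyp2d22 (-0.031 to 0.21), Cyp2d9 (-0.22 to 0.091) and Cyp3a13 (-0.036 to 0.094). The cause of these changes was not tested. Dim probes near background, such as Cyp3a13 and Cyp2f2, limit what can be read from small differences.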
